A study of Rattus norvegicus with 2 samples.

Results

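The S100 calcium-binding protein family was described in rat lung by 10 genes, *S100a1*, *S100a3*, *S100a4*, *S100a6*, *S100a8*, *S100a9*, *S100a10*, *S100a11*, *S100b* and *S100g*, out of 14217 genes measured by a named probe set. A probe set is a group of short probes that reads 1 transcript, and a family member was taken from every probe set whose platform annotation gave exactly 1 symbol that was in this list. All 10 genes were found, with 1 probe set each. Total RNA of lung had been hybridised to 2 Affymetrix whole-genome rat arrays of the same design, 1 by experimenter 2 and 1 by experimenter 1, and the purpose was to see how reproducible global expression values are. The experimenters are numbered as in the titles of their samples, and the labels used here state the tissue and no strain, sex, age, treatment or animal count, nor whether 1 lung or 1 RNA extract served both arrays.

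S100 proteins are small vertebrate proteins with a pair of EF-hands, the helix-loop-helix fold that binds calcium. Most form dimers, and calcium binding exposes a surface by which they bind annexins, cytoskeletal proteins or enzymes, while several are also released and act on the receptors RAGE and TLR4. In lung, the calgranulins S100a8 and S100a9 are known from neutrophils and monocytes, S100a4 and S100a6 from fibroblasts and other mesenchymal cells, and S100b from Schwann cells of airway nerves.

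Values are log2 RMA values as deposited, a level, and each difference subtracts the level on the array of experimenter 1 from the level on the array of experimenter 2. The values ran from 2.26 to 14.49 (median 6.28) for experimenter 2 and from 2.31 to 14.51 (median 6.32) for experimenter 1 over 31042 probe sets besides the controls. With 1 array per experimenter no difference has a replicate error or a test. As a yardstick, the SD of the difference was taken over all probe sets in the same decile of mean level, and each percentile is the share of probe sets of the same array at or below the value. A defining marker of lung was among the brightest probe sets: *Sftpc*, surfactant protein C, had a level of 14.36 on the array of experimenter 2 and 14.39 on that of experimenter 1. The gap between the 3' and 5' control probe sets of beta-actin, which widens with shortened RNA, was 2.71 for experimenter 2 and 2.15 for experimenter 1, and its part in the differences below was not tested.

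The family lay from the middle to the top of the range of lung signal. Its lowest member, *S100b*, stood at percentile 40.9 for experimenter 2 and 44.2 for experimenter 1. On both arrays 7 of the 10 members lay in the top 10% of probe sets and 5 in the top 2%, while *S100a3* and *S100b* lay below the median. Both cut-offs are set on probe sets, 9780 of them without a symbol, and named genes as a whole lay higher. Of the 14217 genes, 9558 reached the median level by their mean, as did 8 of the 10 members, and 5593 reached the upper 25%. How many genes reached the top 10% or 2% was not counted. No member was 1.5-fold apart between the arrays, where only 2.79% of the 9558 genes that reached the median level were. The order of the members was the same on both arrays but for 1 swap of neighbours. Probe sets differ in how strongly their probes bind, so this is an order of signals and not of transcript numbers.

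**Figure D1:**
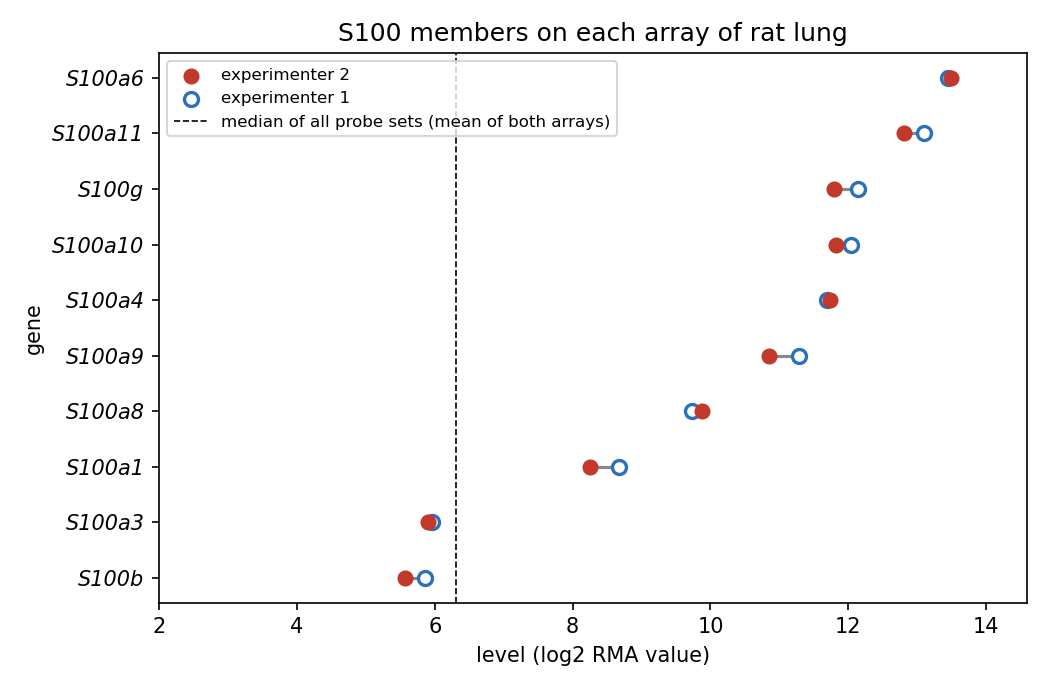
Level of each S100 member (log2 RMA value) on the array of experimenter 2 (filled) and of experimenter 1 (open), 1 probe set per gene, ordered by mean. Differences between the points of a gene run from -0.44 to 0.15, and only *S100a3* and *S100b* lie left of the dashed line, the median of all probe sets at 6.31.

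Among the members that act inside cells on annexins and the cytoskeleton, *S100a6*, calcyclin, had the highest level of the family, 13.50 for experimenter 2 and 13.45 for experimenter 1. It stood at percentile 99.9 on each array, and its difference of 0.049 was small beside the SD of 0.23 among the 3105 probe sets of its level decile. *S100a11*, calgizzarin, a partner of annexin A1, measured 12.81 for experimenter 2 and 13.10 for experimenter 1 and was the second on both arrays. Its difference was -0.30, and 16.5% of the probe sets of that decile differed by at least as much. The gene table lists 5 pseudogenes and 2 S100a11-like genes for *S100a11*, and whether its probes also read their transcripts was not tested.

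*S100a10*, which has lost calcium binding and holds annexin A2 in a tetramer at the cell membrane, measured 11.82 for experimenter 2 and 12.04 for experimenter 1, a difference of -0.22. The gene table lists 1 pseudogene for it. *S100a4*, also called metastasin, which binds non-muscle myosin, measured 11.74 for experimenter 2 and 11.69 for experimenter 1, a difference of 0.055. Most probe sets of this level decile differed by at least as much, 79.2% for *S100a4* and 81.4% for *S100a6*.

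*S100g*, a small calbindin that buffers calcium as a monomer, is best known from the intestine, where vitamin D induces it, and in mouse lung from alveolar type 2 cells. It measured 11.80 for experimenter 2 and 12.14 for experimenter 1, a difference of -0.34, which 11.8% of probe sets of its level decile reached or passed. Its percentile was 98.8 for experimenter 2 and 99.2 for experimenter 1. *S100g* was the fourth of the family for experimenter 2, behind *S100a10*, and the third for experimenter 1, ahead of it. The gap between these 2 members was 0.025 for experimenter 2 and 0.092 for experimenter 1. The SD of the difference between arrays is not an error of a gap between probe sets on 1 array. Probe sets also differ in how strongly their probes bind, so the order of these 2 transcripts cannot be resolved. *S100a4*, the fifth on both arrays, followed *S100g* by 0.057 for experimenter 2 and *S100a10* by 0.36 for experimenter 1.

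The calgranulins, which pair as calprotectin, bind zinc and manganese and are abundant in neutrophil cytosol, differed in opposite directions. *S100a8* measured 9.88 for experimenter 2 and 9.73 for experimenter 1, a difference of 0.15. *S100a9* measured 10.84 for experimenter 2 and 11.28 for experimenter 1, a difference of -0.44 or 1.35-fold lower, the largest in the family. Of the probe sets of this level decile, 5.41% differed by at least as much as *S100a9* and 47.4% by at least as much as *S100a8*. The differences of the partners lay 0.59 apart. Each gene rests on 1 probe set, so a difference of the transcript and one of a single probe set cannot be told apart.

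*S100a1*, known from heart and skeletal muscle where it acts on the ryanodine receptor and the calcium pump of the sarcoplasmic reticulum, measured 8.25 for experimenter 2 and 8.67 for experimenter 1. Its difference was -0.42, which is 1.34-fold lower. It stood at percentile 76.0 for experimenter 2 and 80.8 for experimenter 1, the widest gap in percentile of the family at -4.81 points. In its level decile 10.3% of probe sets differed by at least as much.

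The dim members were *S100a3* and *S100b*. *S100a3*, a zinc-binding protein of the hair cuticle, measured 5.90 for experimenter 2 and 5.96 for experimenter 1, and 83.8% of probe sets of its level decile differed by at least its -0.058. *S100b*, the glial and Schwann cell member, measured 5.57 for experimenter 2 and 5.86 for experimenter 1, a difference of -0.29 that lay within the SD of 0.31 at that level. *S100a3* stood at percentile 45.3 for experimenter 2 and 45.4 for experimenter 1, and *S100b* at 40.9 for experimenter 2 and 44.2 for experimenter 1. Without detection calls it cannot be said whether these values lie above background. *S100a3* lay above *S100b* by 0.33 for experimenter 2 and 0.099 for experimenter 1, which orders signals and not transcripts.

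Taking the 10 members together, 3 were higher and 7 lower for experimenter 2, with a median difference of -0.26 and a range from -0.44 to 0.15. Over all 14217 genes 58.7% were lower and the median was -0.049. Among the 5593 genes whose mean reached the upper 25% of all probe sets 60.5% were lower, so most genes shared the direction. Of the 8 members at or above the median level, 0 were 2-fold apart in either direction, where 0.282% of the 9558 genes at such levels were, 0.262% higher and 0.0209% lower for experimenter 2. At 1.5-fold, where 2.79% of these genes passed, the count of members was also 0. In size, *S100a11*, *S100g* and *S100a9* differed by more than the SD of 0.23 in their level decile. *S100a1* differed by more than the SD of 0.26 in its own, and the other members lay within theirs. This SD is taken over probe sets and is not a replicate error. The signs of all 10 members were the same after median centring, loess and quantile normalization, which moved the median of all probe sets by 0.044 to 0.052.

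**Figure D2:**
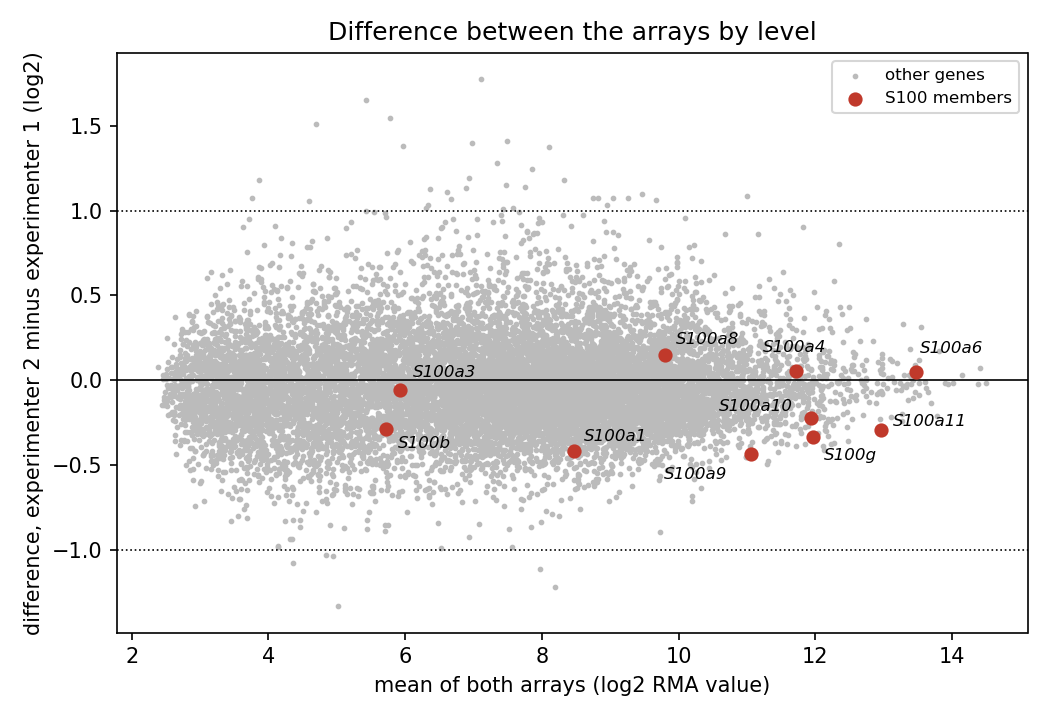
Difference between the arrays (experimenter 2 minus experimenter 1, log2) against the mean level for every gene (grey) and the 10 S100 members (red). Dotted lines mark 2-fold; the members lie between -0.44 and 0.15, inside the cloud of other genes.

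In the gene table of rat assembly GRCr8, 8 of the 10 members lie on chromosome 2 among 16 S100 genes from *S100a1* to *S100a10*, *S100b* lies on chromosome 20 and *S100g* on the X chromosome. Near neighbours in the chromosome 2 cluster had low and high signals. *S100a4*, *S100a5* and *S100a6* follow one another, and *S100a3* is the nearest S100 gene before them besides the pseudogene *S100a2*. *S100a3*, *S100a4*, *S100a5* and *S100a6* stood at percentiles 45.3, 98.7, 19.7 and 99.9 for experimenter 2, and 45.4, 98.6, 15.3 and 99.9 for experimenter 1. *S100a8* and *S100a9*, also side by side, stood at 92.3 and 96.9 for experimenter 2, and 91.1 and 97.95 for experimenter 1.

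**Figure D3:**
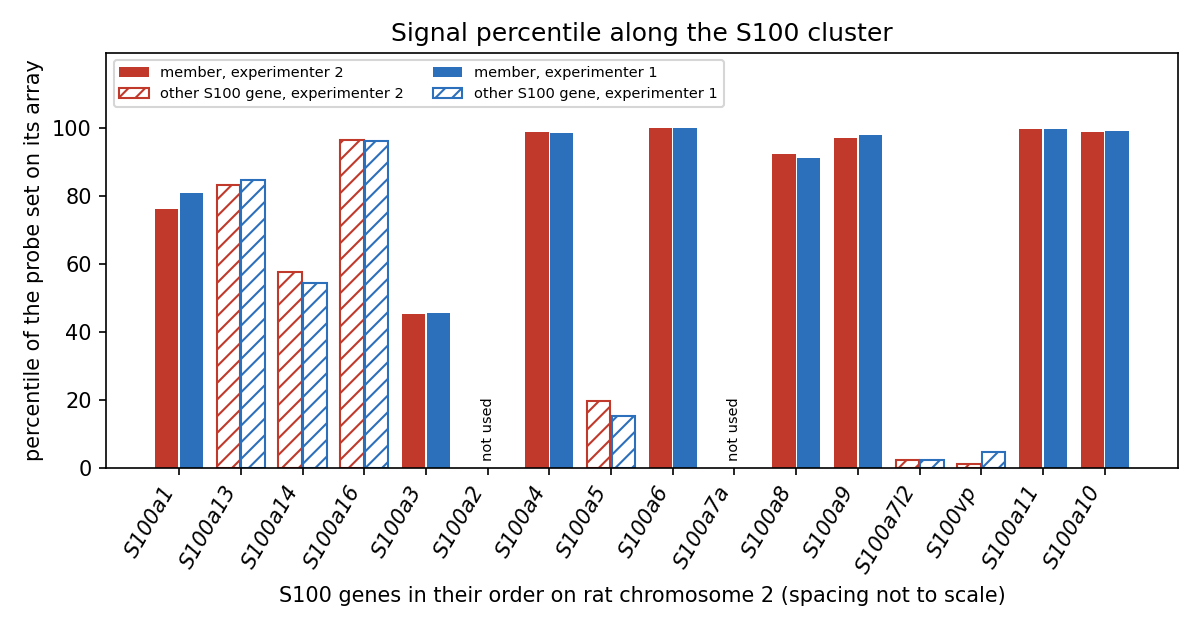
Percentile of each S100 gene's probe set on the array of experimenter 2 (red) and of experimenter 1 (blue), in gene order on chromosome 2, with members filled and other S100 genes hatched. *S100a5*, at percentile 19.7 for experimenter 2 and 15.3 for experimenter 1, lies between *S100a4* and *S100a6*, both above 98 on each array.

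To show the regulatory sequence beside these signals, the 100 bases before the transcription start are given for 3 of those neighbours and for *S100a9*, from RefSeq's promoter table of build GRCr8, 5′ to 3′ on the strand of the gene. Capitals mark a TATA motif (TATAAA) or a GC box (GGGCGG), searched on both strands and not overlapping here.
S100a3, chr2:178384413-178384512, plus strand: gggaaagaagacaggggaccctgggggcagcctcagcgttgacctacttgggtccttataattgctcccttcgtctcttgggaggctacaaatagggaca
S100a4, chr2:178388429-178388528, plus strand: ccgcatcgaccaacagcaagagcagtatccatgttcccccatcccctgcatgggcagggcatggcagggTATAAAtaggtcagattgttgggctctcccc
S100a6, chr2:178398437-178398536, plus strand: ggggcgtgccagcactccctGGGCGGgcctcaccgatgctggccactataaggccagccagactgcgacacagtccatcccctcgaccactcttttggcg
S100a9, chr2:178490623-178490722, minus strand: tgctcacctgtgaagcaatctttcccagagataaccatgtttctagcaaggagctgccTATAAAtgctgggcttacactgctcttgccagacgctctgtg
The TATA motif began at position -31 of *S100a4* and -42 of *S100a9*, counted back from the start, and these were the 2 of 6 members with a promoter in the table that held it. In the same window it was found in 5.78% of all 33469 promoters. The GC box began at position -80 of *S100a6*, and it was found in 2 of the 6 members, *S100a6* and *S100a11*, and in 21.6% of all promoters. *S100a3* and *S100b*, the other members searched, held neither in these 100 bases, and *S100a1*, *S100a8*, *S100a10* and *S100g* were not searched. In the 250 bases before the start, *S100a3* held a GC box too. There the GC box was found in 3 of the 6 members and 30.5% of all promoters. The TATA motif stayed with the same 2 members in that window, where 12.9% of all promoters held it.

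The array also carried 6 S100 genes outside the 10. *S100a16* measured 10.67 for experimenter 2 and 10.64 for experimenter 1, a small difference of 0.038. *S100a13*, which takes part in the release of proteins without a signal peptide, measured 8.85 for experimenter 2 and 9.02 for experimenter 1. *S100a5*, known from olfactory neurons, measured 4.001 for experimenter 2 and 3.78 for experimenter 1. *S100a7l2* and *S100vp*, which were in no list, lay in the lowest decile at 2.80 and 2.65 for experimenter 2, and 2.83 and 3.04 for experimenter 1. *S100a14* had a pair of probe sets whose differences had opposite signs, 0.22 for the brighter (6.88 for experimenter 2 and 6.66 for experimenter 1) and -0.30 for the other (6.16 for experimenter 2 and 6.46 for experimenter 1). By comparison *S100a11* and *S100b*, with 1 probe set each, differed by -0.30 and -0.29. *S100pbp*, which encodes a protein that binds an S100 protein, differed by 0.088 and 0.51 by its 2 probe sets. By brightest probe sets, the list of *S100a5*, *S100a13*, *S100a14*, *S100a16* and *S100pbp* had 4 genes higher and 1 lower for experimenter 2. Its median was 0.088, where the 10 members had -0.26 and 58.7% of all genes were lower. *S100a7l2* and *S100vp*, outside that list, were lower.

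Among 27 measured partners and receptors of S100 proteins, 8 were higher and 19 lower for experimenter 2, where 58.7% of all genes were lower. The median difference was -0.16 against -0.049 for all genes. Of the 27, 0 were 2-fold apart, as were only 39 of all 14217 genes without a filter on level. The receptors were led by *Ager*, which encodes RAGE and is characteristic of alveolar type 1 cells, at 12.85 for experimenter 2 and 12.94 for experimenter 1. *Tlr4*, the endotoxin receptor on which S100a8 acts in mouse, measured 7.84 for experimenter 2 and 7.89 for experimenter 1. *Bsg*, basigin, a receptor for human S100A9, measured 11.40 for experimenter 2 and 11.78 for experimenter 1. The differences were -0.085 for *Ager*, -0.047 for *Tlr4*, -0.058 for *Cd36*, a scavenger receptor, and -0.38 for *Bsg*.

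The annexins were bright, as were *S100a10* and *S100a11*, the S100 partners set beside them here. *Anxa2*, the partner of S100a10, measured 12.03 for experimenter 2 and 12.29 for experimenter 1, a difference of -0.25 close to the -0.22 of *S100a10*, although a dim second probe set of *Anxa2* differed by 0.30. *Anxa1* measured 12.67 on both arrays (difference 0.0015), where its partner *S100a11* differed by -0.30. *Anxa5*, *Anxa6* and *Anxa11* differed by -0.086, -0.20 and 0.086. For the plasminogen system, which S100a10 assists at the cell surface, the activator *Plat* measured 10.23 for experimenter 2 and 10.39 for experimenter 1. The receptor *Plaur* and the zymogen *Plg* lay below the median on both arrays with differences of 0.15 and 0.20. A dimmer second probe set of *Plaur* differed by -0.030.

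Other intracellular partners had differences from -0.28 to 0.35 by their brightest probe sets. *Cacybp*, the calcyclin-binding protein, measured 10.48 for experimenter 2 and 10.13 for experimenter 1, a difference of 0.35 beside 0.049 for *S100a6*, and its second probe set differed by 0.011. *Sugt1*, a co-chaperone that S100a6 binds, differed by 0.099. *Myh9*, the heavy chain of the non-muscle myosin bound by S100a4, measured 10.73 for experimenter 2 and 10.96 for experimenter 1, a difference of -0.23 beside 0.055 for *S100a4*. *Mdm2*, a ubiquitin ligase of p53 that several S100 proteins bind, differed by -0.28, -0.37 and -0.38 by its 3 probe sets. *Capzb* and *Capza1*, actin capping subunits, differed by -0.15 and -0.21, and *Stk38*, a kinase activated by S100b, by -0.18.

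The channels and pumps on this list were mostly dim. *Atp2a2*, the calcium pump on which S100a1 acts, measured 10.31 for experimenter 2 and 10.27 for experimenter 1 by its brightest probe set, and its next 2 probe sets differed by -0.54 and -0.21. *Ryr2* and *Ryr1*, the ryanodine receptors, differed by -0.20 and -0.32 at levels under 5. *Kcnk3*, *Trpv5* and *Trpv6*, channels whose surface delivery S100a10 aids, differed by 0.076, -0.47 and -0.41 by their brightest probe sets, all at levels below the median. The other probe sets of *Kcnk3* differed by -0.15 and -0.16, and that of *Trpv5* by -0.27. *Vdr*, the vitamin D receptor, measured 3.60 for experimenter 2 and 3.84 for experimenter 1, near percentiles 13.4 and 16.2, while *S100g* was near the top. *Padi3*, the enzyme that citrullinates human S100A3, had the largest difference of the list at -0.55, at 4.66 for experimenter 2 and 5.21 for experimenter 1.

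EF-hand proteins outside the family gave a median of 0.052 over 19 genes, and -0.041 with the second brightest probe sets. Of the 19, 12 were higher and 7 lower, where 58.7% of all genes were lower. *Calm2*, a calmodulin gene, measured 12.74 for experimenter 2 and 12.68 for experimenter 1, and *Sri*, sorcin, 11.58 for experimenter 2 and 11.39 for experimenter 1. *Rcn1* and *Rcn2*, reticulocalbins of the endoplasmic reticulum, had the largest positive differences of the list, 0.55 and 0.39, whereas *Rcn3* and *Calu* of the same protein family differed by -0.33 and -0.14. *Calb2*, *Guca1a*, *Efhd1* and *Efhd2* differed by 0.37, 0.29, 0.29 and 0.23. *Pvalb*, *Calb1*, *Tnnc1*, *Tnnc2*, *Ncs1*, *Hpcal1*, *Pdcd6*, *Cib1* and *Capns1* differed by between -0.20 and 0.052.

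Markers of the cells that make S100 proteins were set beside the members, and their counts of lower genes stand beside the 58.7% of all genes that were lower. Of 15 neutrophil genes, 4 were higher and 11 lower, with a median of -0.050 and a mean level of 6.21 for experimenter 2 and 6.30 for experimenter 1. Of the 15, 7 reached the median level of all probe sets. *Lcn2*, lipocalin, a granule protein, was the brightest at 11.43 for experimenter 2 and 11.69 for experimenter 1. That is far above the mean level of the list, and which lung cells the *Lcn2* signal came from was not tested. *Itgam*, an integrin of neutrophils and macrophages, differed most at -0.55. Of 13 monocyte and macrophage genes 4 were higher and 9 lower (median -0.13, mean level 8.40 for experimenter 2 and 8.53 for experimenter 1), with *Lyz2*, a lysozyme, the brightest at a difference of -0.018 and *Ly86* differing most at -0.51. In bulk lung, fewer cells of a type and less RNA per cell cannot be told apart, and the part of these cells in the values of *S100a8* and *S100a9* was not tested.

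Beside *S100b*, 10 of 15 peripheral nerve genes were lower for experimenter 2, with a median of -0.11 and a mean level of 6.55 for experimenter 2 and 6.70 for experimenter 1. This count and that of the cardiac list lie near the 58.7% of all genes that were lower. *Sox10*, a transcription factor of Schwann cells, differed most, at 5.16 for experimenter 2 and 5.82 for experimenter 1, and *Pmp22*, a myelin protein also made elsewhere, was the brightest with a difference of 0.025. S100b is also a product of fat and cartilage cells: 10 of 13 adipocyte genes were lower (median -0.21, mean level 6.51 for experimenter 2 and 6.69 for experimenter 1) and 8 of 10 cartilage genes (median -0.12, mean level 4.22 for experimenter 2 and 4.37 for experimenter 1). *Adipoq*, adiponectin, differed by -0.52 and *Lpl*, a lipase, by -0.021, and *Col9a2*, a cartilage collagen chain, by -0.55. Beside *S100a1*, 9 of 14 cardiac muscle genes were lower (median -0.13, mean level 4.64 for experimenter 2 and 4.71 for experimenter 1), with *Tnni3*, cardiac troponin I, at -0.67 and *Mybpc3* the brightest at -0.21. The median level of all probe sets was reached by 7 of the 15 nerve genes and 7 of the 13 adipocyte genes. Only 1 of the 10 cartilage genes and 1 of the 14 cardiac genes reached it. *Sox10*, *Adipoq* and *Tnni3* lay below the median on both arrays. The part of these tissues in the values of *S100b* and *S100a1* was not tested.

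Lists of lung epithelium, fibroblasts and other leukocytes had medians from -0.16 to -0.059. Alveolar type 2 genes had a median of -0.066 (9 of 13 lower), with *Abca3*, a lipid transporter, differing most at -0.28, beside -0.34 for *S100g*. Alveolar type 1 genes had -0.069 (7 of 10 lower), with *Hopx* both brightest and most different at 0.33, and fibroblast genes -0.060 (9 of 13 lower), with *Mfap4* brightest at a difference of -0.24 and *Pdgfra* differing most at 0.28. Ciliated and club cell genes had -0.16 (7 of 10 lower), led by *Scgb1a1* at 0.070, with *Rsph1* at 0.51. Dendritic and T cell genes had -0.059 (7 of 11 lower), with *Lck* brightest at -0.34, and *Ly75* at 1.13 was the 1 gene of all lists past 2-fold. Squamous epithelium and hair genes, of another tissue and set beside *S100a3*, had -0.089 (6 of 11 lower), and all 11 had means below the median level, with *Krt10* brightest at 0.046 and *Tgm3*, a transglutaminase, at -0.86.

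**Figure D4:**
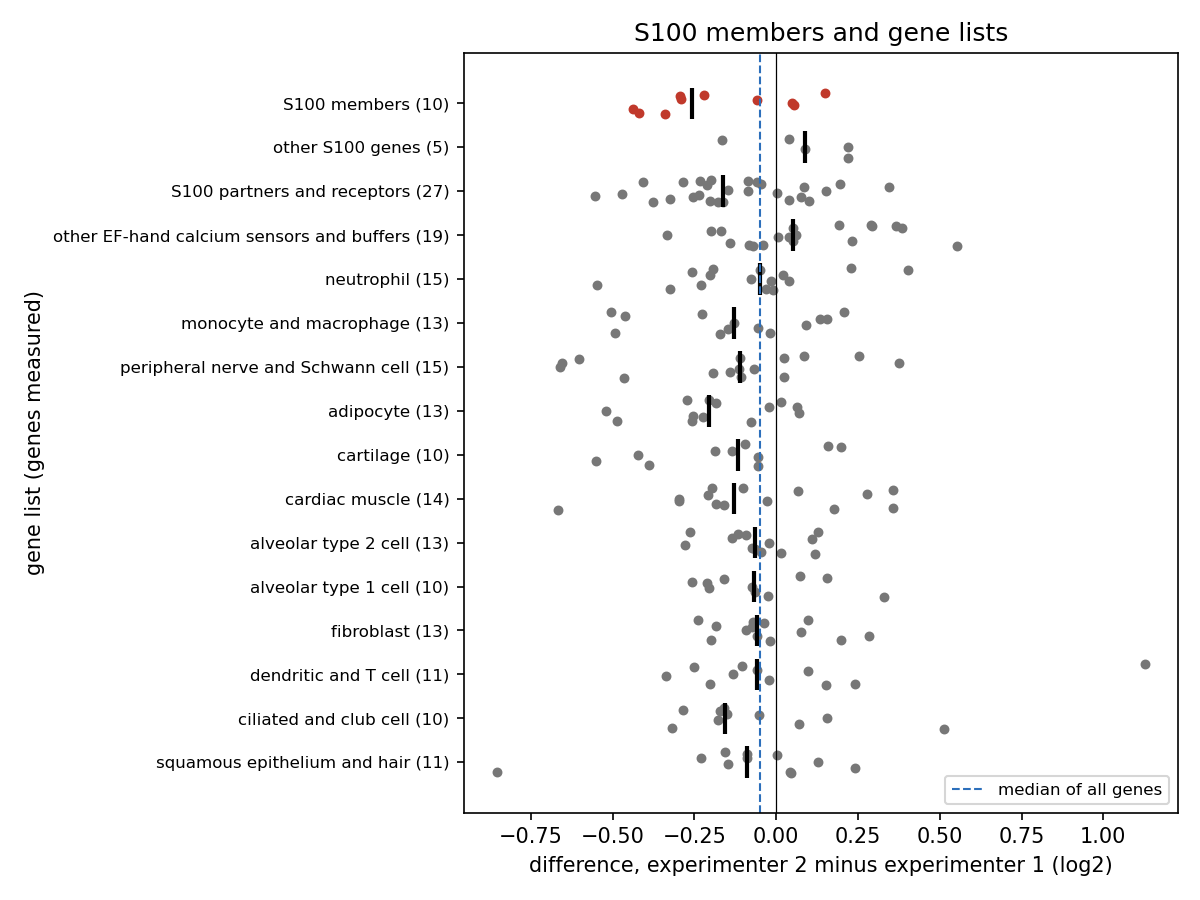
Difference between the arrays (experimenter 2 minus experimenter 1, log2) for each S100 member (red) and each gene of the lists set beside them (grey), with the median of each row as a black bar. The members' median of -0.26 lies left of the median of all genes at -0.049 (dashed), and the EF-hand list's median of 0.052 lies right of it.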

How the data were processed

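The authors deposited log2 RMA values, per the submitters' processing notes, which name RMA without a version. RMA corrects background, forces arrays to a common distribution and summarises each probe set, so differences in total RNA are hidden. The log base was taken as 2 from the range of values, and no detection calls were used. Of 31099 probe sets, 57 controls were kept apart; 20826 of the rest had 1 symbol, 436 several and 9780 none. Symbols were updated through Entrez identifiers to assembly GRCr8 (20758 matched). A gene was represented by its brightest probe set by mean over both arrays. The 2-fold rule took genes whose mean reached the median over probe sets (6.31).

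The S100 members and the 15 gene lists were chosen with earlier results of these data known. Named genes were all members and genes of the S100, partner and EF-hand lists, and, of each other list, the brightest and the most different; *S100a7l2* and *S100vp* were added after their values were seen. With 1 array per experimenter there is no test. Alternatives were median centring, loess (fraction 0.3), quantile normalization, other probe set choices, 1.5-fold, other level filters and the mean of a list. Python 3.11.15, numpy 2.4.6, pandas 2.3.3, statsmodels 0.14.6 and matplotlib 3.10.9 were used, and scripts were tested on simulated data. Of 10 members, 6 were matched in RefSeq's promoter table.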

Additional observations from a re-analysis of the deposited data

How the results depend on the processing

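No paired analysis was possible because there is a single array on each side; leaving out an array would leave no comparison. The number of genes 2-fold apart, 27 as reported, was 15 with the mean over probe sets and 267 at 1.5-fold. It was 9 among genes whose mean reached the upper 25% of all probe sets. The number of members was 0 under each alternative, the 1.5-fold rule included, where 2.79% of the 9558 genes passed. The largest member difference was -0.44, and the scalings moved the median of all probe sets by only 0.044 to 0.052. The alternatives could therefore hardly give another count of members. Under the 3 scalings the difference of *S100a9* lay between -0.43 and -0.39, that of *S100a1* between -0.37 and -0.36, that of *S100a6* between 0.018 and 0.10 and that of *S100a3* between -0.017 and -0.0066. The probe set choices left the members as they were, since each has 1 probe set. List medians, themselves small, moved by up to 0.066 under the scalings and up to 0.10 under the other alternatives, and the sign turned for neutrophil genes (0.0015 after median centring and 0.0050 after loess), for EF-hand genes (-0.041 with the second brightest probe sets) and for dendritic and T cell genes (0.046 by the mean of the list). Signal limits the dim members, *S100a3* and *S100b*, whose level over background is unknown.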
